A study of Mus musculus with 35 samples.

Results

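The cytosolic and mitochondrial heat shock chaperones were followed in single mouse embryonic fibroblasts that did or did not hold micronuclei after irradiation. The group was chosen by symbol and comprised 10 genes: Hspa1a, Hspa1b, Hspa8, Hsp90aa1, Hsp90ab1, Hspb1, Hsph1, Dnajb1, Hspd1 and Hspe1. All 10 were present among the 19085 gene entries with at least 1 read. A filter on low counts (a level of 5 CPM or more in the pooled cells, where CPM scales reads on genes to a common total, together with 5 or more reads in 5 or more cells) was passed by 9 of them, all but Hspa1a, and by 8390 genes in all. Both groups were C57Bl/6J fibroblasts, connective tissue cells cultured from embryos at 3% O2, and every cell had received 1 Gy. They were reseeded on membrane dishes at 32 h after irradiation, stained for DNA with PicoGreen at 48 h and cut out one at a time with a laser. Micronuclei, which are fragments or whole chromosomes enclosed in an envelope of their own, were present in 21 cells and absent from 14. No unirradiated cells were used here, and polyadenylated RNA of each cell was read by Smart-seq2, a full-length method without molecular identifiers.

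Chaperones bind unfolded proteins and help them fold, with cycles of ATP binding and hydrolysis driving HSP70, HSP90 and the mitochondrial HSP60 chaperonin. Cells keep some of these proteins at a steady high level (constitutive members: Hspa8, Hsp90ab1, Hspd1 and Hspe1). Others are raised by heat shock factor 1 when unfolded proteins accumulate (inducible members: Hspa1a, Hspa1b, Hsp90aa1, Hspb1, Hsph1 and Dnajb1). The division is one of degree, since Hsp90aa1 and Hspb1 are also transcribed in unstressed fibroblasts. No response to heat shock factor 1 was measured here, so the constitutive members are not shown to lack one. Hspe1 and a start of Hspd1 lie near units of the element that heat shock factors bind, as given below. No alternative moved either gene to the inducible members.

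Reads counted on genes numbered 57514 to 1794113 per cell with micronuclei (median 281800) and 56766 to 2023111 per cell without (median 736715). Since every library came from a single cell and the labels name neither culture nor embryo, a group was taken as 1 sample. No p-value was computed, no replicate check exists, and the 95% intervals cover counting error only. Cells are numbered within their group in the order of their records, and the numbers have no further meaning. Fibroblast markers summed to 2873 to 15142 CPM with micronuclei and 5026 to 16419 CPM without, and every cell had at least 5 reads on at least 2 of them. Macrophage markers stood out in 3 cells with micronuclei (cells 4, 10 and 18), which had at least 5 reads on at least 2 of the 8 markers. They reached 15535 CPM in cell 10, while 7 of the 8 markers were at 0 in all cells without micronuclei. Fewer than 4000 genes or more than 9% mitochondrial reads were found in 6 cells (4 with micronuclei and 2 without). These were cells 4, 6, 18 and 21 with micronuclei and cells 1 and 5 without. Among them are the highest cell for Hspa1b (cell 1 without micronuclei) and for Hspa8 (cell 21 with micronuclei). The part of these cells in the results was not tested beyond the values without them.

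Promoter sequence is shown for the inducible HSP70 pair, to compare its near-identical copies, and around the matches of 3 further members, to compare their heat shock elements. RefSeq promoter sequence (GRCm38.p6) was matched by symbol for 7 of the 10 members, in 10 windows of the 250 bases before a start site; Hspa8, Hsp90aa1 and Hsp90ab1 had no entry. The element bound by heat shock factors is built from alternating GAA and TTC units, and windows were searched on both strands for GAANNTTC and TTCNNGAA, each of which reads the same on the other strand. These patterns can overlap each other when units follow in a row. GAANNTTC was present in 6.78% of 27025 mouse promoter windows of the same length, TTCNNGAA in 7.10% and either of them in 12.9%. A run of 3 alternating units was present in 0.400%. At least 1 match lay in a window of 6 of the 7 members. The shares over mouse promoters count 1 window per gene, while a member could match in any of its windows. Hspd1 matched only in its second window, in bases shared with Hspe1. The windows of Hspa1a and Hspa1b are near-identical, so the 6 are not separate matches. Both inducible HSP70 genes are shown whole, with the matched units in capitals.
Hspa1a promoter, chr17:34972157-34972406, minus strand: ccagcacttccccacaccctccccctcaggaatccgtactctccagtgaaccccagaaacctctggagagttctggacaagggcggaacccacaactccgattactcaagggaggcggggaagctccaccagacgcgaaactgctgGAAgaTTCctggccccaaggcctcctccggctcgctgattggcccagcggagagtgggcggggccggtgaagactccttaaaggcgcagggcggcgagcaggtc
Hspa1b promoter, chr17:34959239-34959488, minus strand: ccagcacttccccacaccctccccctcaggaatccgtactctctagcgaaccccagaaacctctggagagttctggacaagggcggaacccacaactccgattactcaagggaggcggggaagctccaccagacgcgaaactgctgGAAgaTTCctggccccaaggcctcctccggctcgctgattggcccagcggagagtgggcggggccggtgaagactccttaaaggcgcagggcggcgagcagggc

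These windows were identical at 247 of 250 bases (98.8%), and each held 1 GAANNTTC at positions -104 to -97 from the start. Near-identical sequence also covered the transcripts: 66.3% of the 50-base windows of Hspa1a transcripts and 62.3% of those of Hspa1b also occurred in a transcript of another gene. How reads that fit both genes were counted is not given in the sources used here, so the split of reads between Hspa1a and Hspa1b is uncertain.

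The stretches around the matches of 3 other members are shown with the same use of capitals, to compare the number of units.
Hspb1, chr5:135887786-135887845, plus strand: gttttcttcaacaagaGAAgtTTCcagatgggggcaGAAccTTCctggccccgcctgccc
Hsph1, chr5:149636351-149636380, minus strand: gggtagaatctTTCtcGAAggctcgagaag
Hspe1, chr1:55088053-55088082, plus strand: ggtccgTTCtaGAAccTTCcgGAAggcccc

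Hspb1 held 2 separate GAANNTTC matches, beginning at positions -117 and -97 from its start site. Hsph1 held a single TTCNNGAA, at positions -33 to -26 from the start site of its first RefSeq window. Hspe1 held 4 alternating units in a row, read as 1 GAANNTTC and 2 TTCNNGAA, which make 2 overlapping runs of 3 units. The same bases lie at positions -144 to -127 from the second RefSeq start of Hspd1, the neighbouring gene on the opposite strand. The window of the first Hspd1 start and both windows of Dnajb1 held no match. The second Dnajb1 window (chr8:83608298-83608547) lies inside the gene model, which starts at 83608193. The constitutive Hspe1 thus had a run of 4 units, and the inducible Dnajb1 had none. The classes as a whole cannot be compared, since Hspd1 and Hspe1 were the only constitutive members with an entry and share their matched bases. A match describes the letters only, and no binding was measured.

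Levels of different genes were compared as CPM per kilobase of exon. In cells with micronuclei the median level was highest for Hsp90ab1 (790.2 CPM per kilobase), followed by Hspb1 (473), Hsp90aa1 (320.5), Hspe1 (243), Hspa8 (197), Hspd1 (98.6), Dnajb1 (33.9), Hsph1 (4.99), Hspa1b (0.618) and Hspa1a (0). In cells without micronuclei Hspb1 came first with a median of 581 CPM per kilobase and Hsp90ab1 second with 548. The remaining order was the same, with Hsp90aa1 at 307, Hspe1 at 259, Hspa8 at 144, Hspd1 at 129.9, Dnajb1 at 34.3, Hsph1 at 6.96, Hspa1b at 2.01 and Hspa1a at 0 CPM per kilobase. Some neighbours in this order changed places between cells: Hspa8 exceeded Hspe1 per kilobase in 10 of 35 cells, and Hsph1 exceeded Dnajb1 in 6 of 35. Other pairs kept 1 order in most cells. Within a protein family or complex, Hsp90ab1 exceeded Hsp90aa1 per kilobase in 34 of 35 cells, the constitutive Hspa8 exceeded the inducible Hspa1b in 34, and Hspe1 exceeded Hspd1 in 31. Across families, Hsp90ab1 exceeded Hspa8, Hspb1 exceeded Dnajb1, and Hspd1 exceeded both Hsph1 and Hspa1b, each in 34 of 35 cells.

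**Figure D1:**
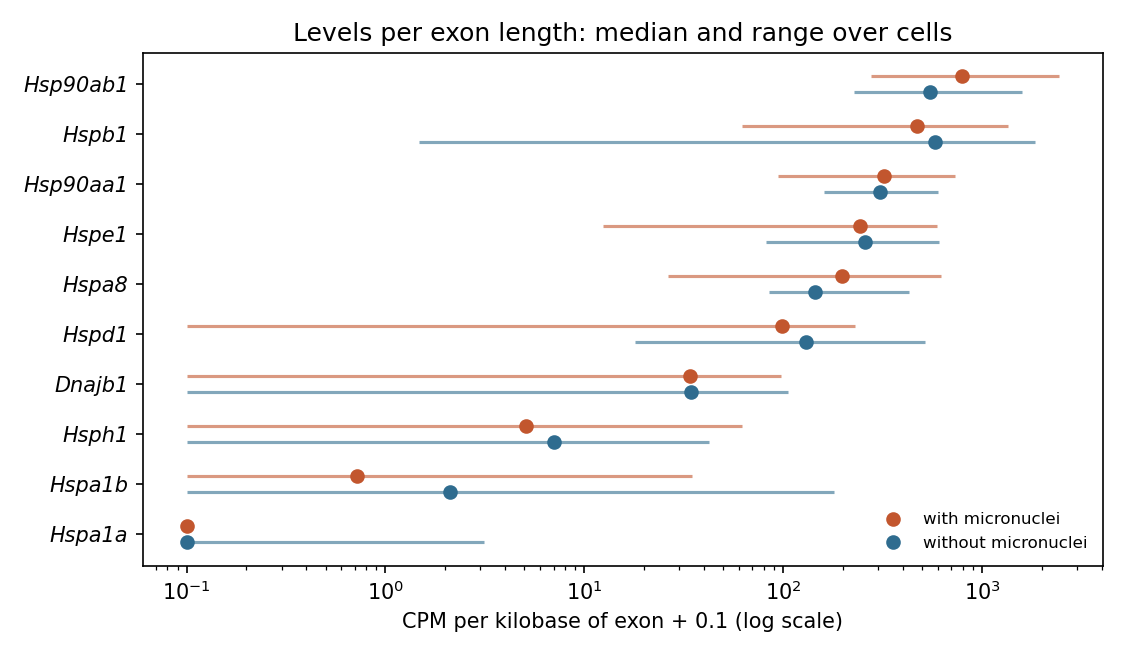
Level of each chaperone gene in CPM per kilobase of exon (0.1 added, log scale), as the median (point) and the lowest and highest cell (line) in 21 cells with and 14 cells without micronuclei. Levels fall from Hsp90ab1 and Hspb1 at the top to Hspa1b and Hspa1a at the bottom in both groups.

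Hspa1a and Hspa1b encode the stress-inducible cytosolic HSP70. They are single-exon genes 9951 bp apart on the minus strand of chromosome 17 (GRCm38: Hspa1b chr17:34956436-34959238, Hspa1a chr17:34969190-34972156). Hspa1a had 5 reads in all, every one in cell 9 without micronuclei (8.95 CPM), and 0 reads in the 21 cells with micronuclei. A floor of 3 reads over the group with micronuclei (0.271 CPM) makes its summed level at least 1.59-fold higher without micronuclei (0.431 CPM), which rests on that cell. The Hspa1a exon also shares 564 bases with Gm20481, on the opposite strand.

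The reads of the inducible HSP70 pair lay almost all on Hspa1b (1202 reads), and of the 10 members it had the largest ratio between the groups in summed reads. With micronuclei its level ran from 0 to 97.5 CPM over cells with a median of 1.73 CPM, and without micronuclei from 0 to 506 CPM with a median of 5.62 CPM. The 5 highest cells were all without micronuclei: cells 1 (506 CPM), 14 (499 CPM), 7 (226 CPM), 9 (170 CPM) and 3 (119 CPM). All 5 lay above the highest cell with micronuclei, cell 9, while the other 9 cells lay within the range of those with micronuclei. At least 5 reads were found in 5 of 21 cells with micronuclei (23.8%, Clopper-Pearson interval 8.22% to 47.2%) and in 7 of 14 without (50%, 23.04% to 76.96%). After thinning every cell to 119337 reads, which left 17 and 13 cells, the counts were 4 of 17 and 5 of 13. These shares were not tested against each other.

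Summed over cells, Hspa1b stood at 16.4 CPM with micronuclei (182 reads) and 87.8 CPM without (1020 reads). The log2 ratio of with over without micronuclei, with 1 CPM added to each, was -2.35 (counting interval -2.57 to -2.13). It was -2.67 when every cell had equal weight and lay between -2.86 and -1.45 under the 10 other scalings, added values and sets of cells tried, so its direction held in all of them. Leaving out 1 cell at a time gave -3.18 (without cell 9 with micronuclei) to -1.77 (without cell 7 without micronuclei, which held 38.1% of all Hspa1b reads).

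**Figure D2:**
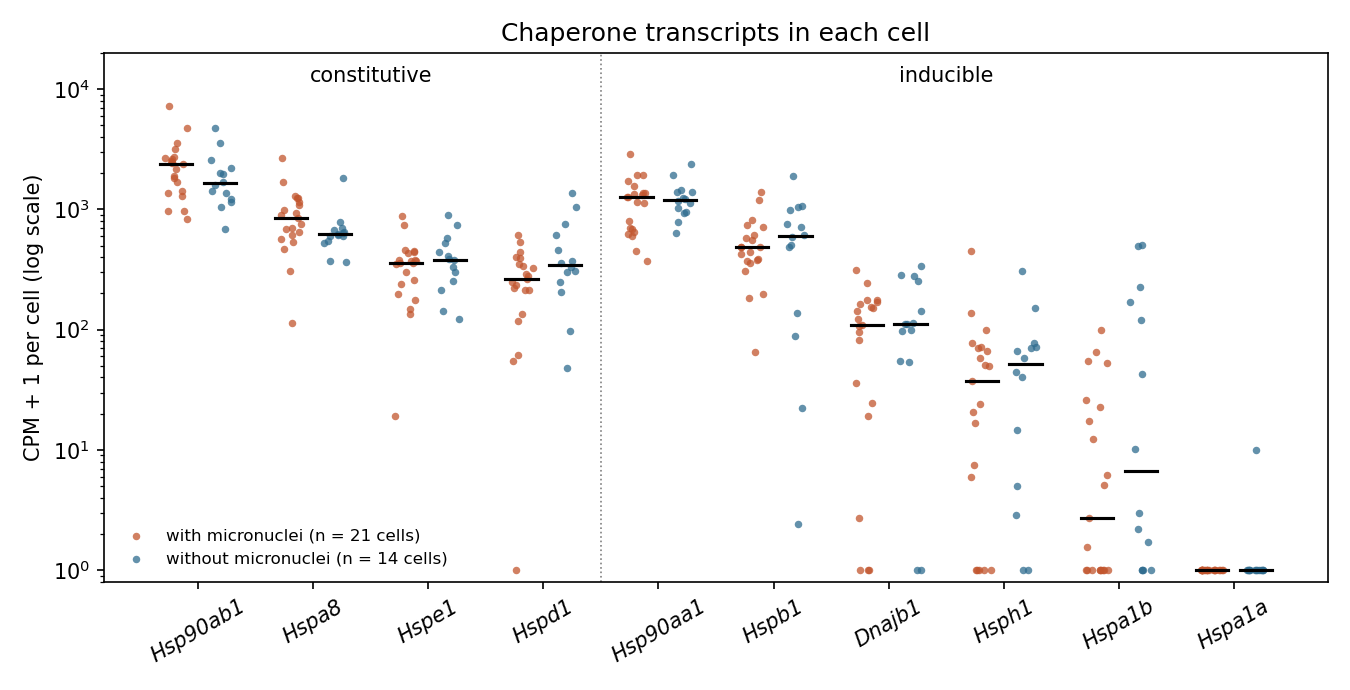
CPM plus 1 (log scale) of the 10 chaperone genes in each cell, with 1 point per cell, the 21 cells with micronuclei on the left of each pair and the 14 without on the right, and bars at the medians. For Hspa1b 5 cells without micronuclei lie above every cell with micronuclei, while the constitutive genes overlap over most of their range.

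Hsph1 encodes HSP110, which exchanges the nucleotide of HSP70 (GRCm38 chr5:149614287-149636376). Its level ran from 0 to 452 CPM with micronuclei (median 36.2 CPM) and from 0 to 307 CPM without (median 50.6 CPM). Both groups had cells at 0, and the highest cell of all was cell 19 with micronuclei, the shallowest library of its group. At least 5 reads were found in 12 of 21 and 8 of 14 cells, which is 57.1% of each, and after thinning in 7 of 17 and 7 of 13. Summed levels of 48.0 CPM and 98.6 CPM gave a log2 ratio of -1.02 (counting interval -1.17 to -0.88), but the equal-weight ratio was -0.13. Cell 7 without micronuclei held 37.0% of the Hsph1 reads, and the ratio was -0.18 without it. Leaving out any of 10 single cells brought the ratio within 2-fold: cells 1, 2, 6, 10, 11, 13, 14 and 17 with micronuclei, and cells 7 and 11 without. The lowest ratio was -1.48, without cell 7 with micronuclei.

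Dnajb1 encodes HSP40, the J-domain protein that brings substrates to HSP70 and stimulates its ATPase (GRCm38 chr8:83608193-83612653). Its level ran from 0 to 313 CPM with micronuclei and from 0 to 338 CPM without, with medians of 109 CPM and 109.9 CPM. The medians were nearly equal and the ranges overlapped almost completely. At least 5 reads were present in 17 of 21 and 11 of 14 cells, and after thinning in 10 of 17 and 11 of 13. The log2 ratio of the summed levels (91.0 CPM and 136 CPM) was -0.58, stayed below 0 in all 10 alternatives (-0.72 to -0.34) and was -0.29 without cell 7 without micronuclei.

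Hspb1 encodes HSP25, a small heat shock protein that holds unfolding proteins without using ATP (GRCm38 chr5:135887919-135889563). Its level ran from 63.6 to 1396 CPM with micronuclei (median 487 CPM) and from 1.41 to 1899 CPM without (median 599 CPM). The spread was wider without micronuclei: 2 of those cells, 8 and 7 (1.41 and 21.3 CPM), lay below every cell with micronuclei and 1, cell 6, above every one. The log2 ratio of the summed levels (612 CPM and 556 CPM) was 0.14, but it turned negative with equal weights (-0.26), TMM factors, scran factors and thinned cells, and was -0.13 without cell 7 without micronuclei. No direction can therefore be given for Hspb1. Of the 50-base windows of its transcripts 51.6% also occurred in another gene, led by the pseudogene Hsp25-ps1, which had few of the reads (26 with micronuclei and 48 without).

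HSP90 is the chaperone of kinases, steroid receptors and other signalling proteins, with an inducible alpha form from Hsp90aa1 (GRCm38 chr12:110690605-110702728) and a constitutive beta form from Hsp90ab1 (chr17:45567775-45573271). Hsp90aa1 ran from 369.7 to 2886 CPM with micronuclei (median 1259.8 CPM) and from 631 to 2371 CPM without (median 1206 CPM). The groups overlapped, with 4 cells with micronuclei below every cell without. Its log2 ratio from summed levels (942 CPM and 1284 CPM) was -0.45, negative in all 10 alternatives but only -0.07 with equal weights. Hsp90ab1 ran from 831 to 7303 CPM with micronuclei (median 2369.7 CPM) and from 682 to 4768 CPM without (median 1644 CPM). Its log2 ratio (1976 CPM and 1708 CPM) was 0.21, positive in all 10 alternatives (0.07 to 0.32), beside a median of 0.15 over the measured genes. Of the HSP90 reads within a cell, Hsp90aa1 held a median of 32.8% with micronuclei (20.3% to 50.6%, SD 7.75, n = 21) and 41.2% without (25.5% to 57.7%, SD 9.71, n = 14). This share needs no scaling by depth. It was above every cell with micronuclei in 3 cells without, and below every cell without micronuclei in 3 cells with them. Over the 35 cells the level of Hsp90ab1 fell with the number of reads (Spearman's rho -0.47), and that of Hsp90aa1 less so (-0.25). Median reads were higher without micronuclei, and the part of depth in the share was not tested. Of the 50-base windows of Hsp90aa1 transcripts 58.5% also occurred in other genes, against 4.49% for Hsp90ab1.

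Hspa8 encodes HSC70, the constitutive cytosolic HSP70 (GRCm38 chr9:40800984-40810087). Every cell had at least 5 reads. Its level ran from 113 to 2665 CPM with micronuclei (median 846 CPM) and from 363 to 1837 CPM without (median 620.4 CPM). Cell 21 with micronuclei lay above all others and 2 cells with micronuclei lay below every cell without, so the cells with micronuclei covered the wider range. Hspa8 had the highest ratio of the 10 members: 1023.5 CPM and 669.9 CPM summed, a log2 ratio of 0.61 (counting interval 0.57 to 0.65) and 0.44 with equal weights. The ratio was positive in all 10 alternatives and in every leave-out of 1 cell (0.46 to 0.74). Of the 50-base windows of Hspa8 transcripts 52.7% also occurred in other genes, whose entries in the table held 113 reads against 19124 on Hspa8. The direction was opposite to that of Hspa1b, the inducible gene of the same protein family.

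Hspd1 encodes HSP60, which forms the folding chamber of the mitochondrial matrix, and Hspe1 encodes HSP10, its lid. The genes lie head to head on chromosome 1 (GRCm38: Hspd1 chr1:55077835-55088243, minus strand; Hspe1 chr1:55088132-55091307, plus strand) and overlap by 112 bp. These bases are 4.24% of the exon length of Hspd1 and 7.60% of that of Hspe1, and reads there cannot be told apart unless counted by strand. Of the 50-base windows of Hspd1 transcripts 44.8% also occurred in other genes, whose entries in the table held 57 reads against 9429 on Hspd1. Hspd1 ran from 0 to 609 CPM with micronuclei (median 260.4 CPM) and from 47.2 to 1364 CPM without (median 343 CPM). The 4 highest cells, numbers 8, 7, 14 and 1, were without micronuclei and lay above all cells with them. Hspe1 ran from 18.2 to 879 CPM with micronuclei (median 358 CPM) and from 121 to 898 CPM without (median 382 CPM), with nearly complete overlap.

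The summed levels of Hspd1 were 270.3 CPM with micronuclei and 554 CPM without, a log2 ratio of -1.03 (counting interval -1.10 to -0.97). It was negative in all 10 alternatives (-1.17 to -0.77), with the equal-weight value of -0.77 within 2-fold. Leaving out 1 cell gave -1.33 (without cell 13 with micronuclei) to -0.71 (without cell 8 without micronuclei), and the ratio fell within 2-fold without any of cells 2, 11, 14 and 21 with micronuclei or cells 7 and 8 without. Hspe1 gave a smaller ratio in the same direction, -0.41 summed and -0.20 with equal weights, negative in all alternatives.

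Cell by cell, the partners rose and fell together in part. Over the 35 cells Hspd1 and Hspe1 correlated with Pearson's r of 0.76 and Spearman's rho of 0.48 on log2(CPM + 1). Cell 6 with micronuclei, which had the fewest genes of all cells (2391), had 0 reads of Hspd1 and 18.2 CPM of Hspe1. Without this cell r was 0.48. Hsp90aa1 and Hsp90ab1 correlated with r of 0.67 and rho of 0.58, and r stayed between 0.60 and 0.71 when any 1 cell was left out. Within the cells with micronuclei rho was 0.58 for the mitochondrial pair and 0.70 for the HSP90 pair, and within those without it was 0.36 and 0.38. Genes counted in the same cell share its library and depth, and no test was made. Over all 36 pairs of the 9 measured members rho ran from -0.37 (Hspb1 with Hspe1) to 0.58. The summed inducible and the summed constitutive level correlated with a rho of 0.27, and the constitutive sum with the number of reads of the cell with a rho of -0.36.

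**Figure D3:**
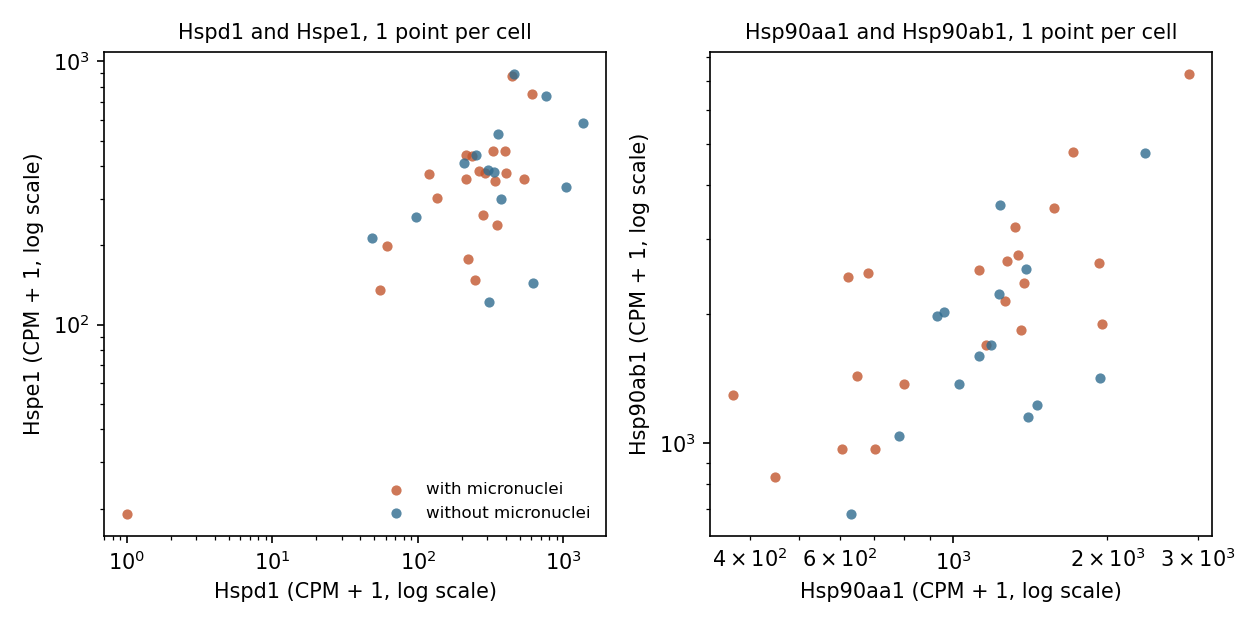
CPM plus 1 of Hspe1 against Hspd1 and of Hsp90ab1 against Hsp90aa1 (log scales), with 1 point per cell for 21 cells with and 14 without micronuclei. The single point at the lower left of the plot of Hspe1 against Hspd1 is cell 6 with micronuclei, which had 0 reads of Hspd1.

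Across the 10 members, 3 were lower with micronuclei past 2-fold in summed reads (Hspa1b, Hspd1 and Hsph1) and 0 were higher. Of the 8390 measured genes 14.7% were lower and 22.9% were higher past 2-fold, and 56.0% had a ratio above 0. These were 1925 higher and 1236 lower genes, against 1800 and 443 when log2 values were averaged over cells. The median log2 ratio of the members was -0.48, or -0.51 with Hspa1a set against the floor of 3 reads, against 0.15 for all measured genes. It was -0.55 for the 6 inducible members (-0.62 with that floor) and -0.10 for the 4 constitutive ones, which turned positive, to 0.06, with equal weights and also with mean log2 values and scran factors. The constitutive median fell between Hspa8 (0.61) and Hsp90ab1 (0.21), which lay above 0, and the mitochondrial Hspe1 (-0.41) and Hspd1 (-1.03), which lay below. It therefore describes none of the 4 genes. With equal weights the member median was -0.23 and that of all measured genes 0.05. Hspa1b alone stayed past 2-fold with equal weights, mean log2 values, scran factors and thinned cells, and in all 35 leave-outs of 1 cell. Under these settings in turn 10.5%, 5.28%, 12.3% and 12.5% of all measured genes were lower past 2-fold. Without the 6 cells of few genes or many mitochondrial reads 3 members were lower past 2-fold, beside 14.5% of all measured genes. Without the 3 cells with macrophage markers 2 were, beside 15.6%, with Hsph1 at -0.96.

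**Figure D4:**
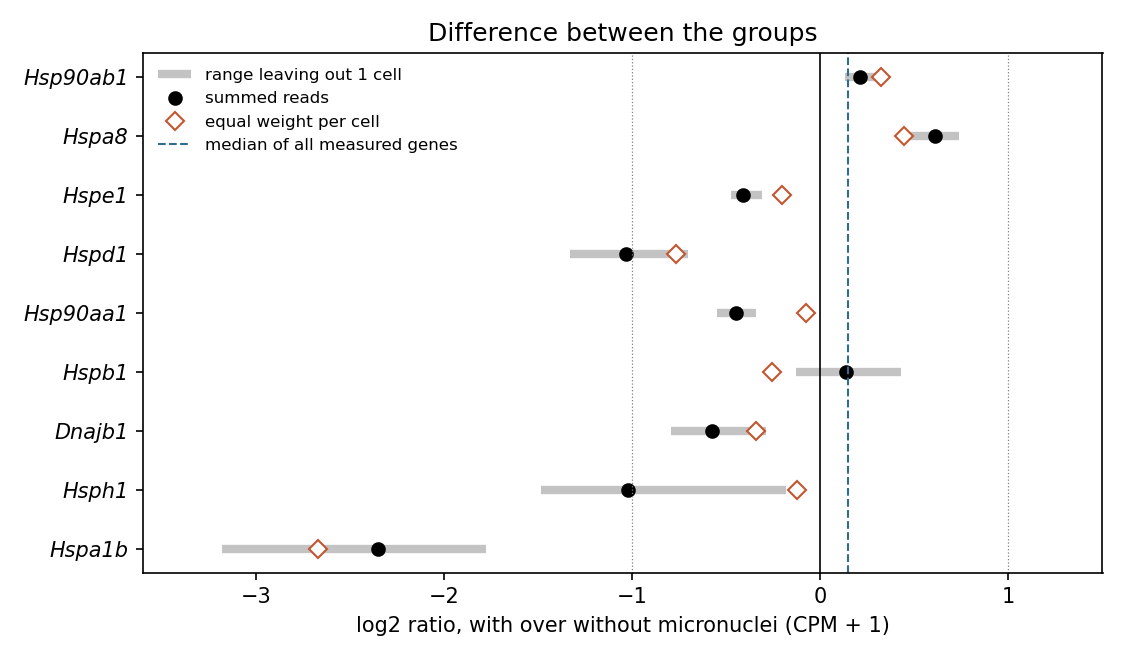
Log2 ratio of CPM plus 1, with over without micronuclei, for the 9 measured members from summed reads (points) and with equal weight per cell (diamonds), with the range over leave-outs of 1 cell (bars), 2-fold (dotted lines) and the median of all measured genes, 0.15 (dashed line). Hspa1b lies beyond 2-fold in both forms, Hspa8 lies above 0, and the bars of Hsph1 and Hspd1 cross 2-fold.

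The balance of inducible to constitutive transcripts within a cell was also measured. Inducible members held a median of 33.8% of the member reads with micronuclei (19.1% to 50.98%, SD 8.30, n = 21) and 39.1% without (20.7% to 61.8%, SD 10.0, n = 14). The medians differed by -5.28 percentage points, a difference that was not tested, and the ranges overlapped apart from 1 cell at either end. Leaving out single cells kept the difference between -7.47 and -3.09 points. The 4 strictly inducible members (Hspa1a, Hspa1b, Hsph1 and Dnajb1) held a median of 2.87% of the member reads with micronuclei (0% to 7.60%). Without micronuclei they held 5.09% (0.151% to 14.3%). Most of the inducible share therefore lay on Hsp90aa1 and Hspb1, which are also transcribed in unstressed fibroblasts. The summed level of all members was similar, with medians of 5732 CPM with micronuclei and 5216 CPM without. The inducible sum had medians of 1782 CPM and 2203 CPM, and the constitutive sum 4198 CPM and 3326 CPM.

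Chaperones and co-chaperones outside the members were described from lists by function. Of their 102 genes 90 were measured, of which 52 had a ratio above 0 and 38 below, with 17 higher and 9 lower past 2-fold and a median log2 ratio of 0.17, close to that of all measured genes. Beside these counts and those of each list below, 22.9% of all 8390 measured genes were higher and 14.7% lower past 2-fold. The co-chaperones of HSP90 had a median of 0.46 (0.32 to 0.54 over the 10 alternatives), with 5 of 12 higher and 2 lower past 2-fold. Ahsa1, which stimulates the ATPase of HSP90, stood at 246 CPM with micronuclei and 80.5 CPM without, a log2 ratio of 1.60 (1.26 without cell 13 with micronuclei, 2.36 without cell 11 without, and up to 3.37 over the alternatives). At least 5 reads of Ahsa1 were found in 20 of 21 and 7 of 14 cells. Tomm34, which links HSP70 and HSP90, had a ratio of 1.84 (2.74 without cell 11 without micronuclei). Ruvbl2, an ATPase that works with HSP90 in assembling complexes, had 2.12 (1.19 with equal weights) but 0.87 without cell 13 with micronuclei. These 3 kept their direction in all 10 alternatives. An equal sign with equal weights and in every leave-out was a condition for naming them, so it adds no support.

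Among the nucleotide exchange factors and co-chaperones of HSP70 3 of 12 were higher and 0 lower past 2-fold, with a median of 0.50. Bag5, a nucleotide exchange factor, had a log2 ratio of 2.49 (1.79 without cell 7 with micronuclei, 3.81 without cell 13 without), but 0.97 with equal weights, which is within 2-fold. Grpel2, its counterpart in mitochondria, had 1.43 (0.84 without cell 14 with micronuclei and also with equal weights). Both rest on few cells: at least 5 reads were found in 9 of 21 and 3 of 14 cells for Bag5. For Grpel2 these were 9 and 4 cells, with a median of 0 CPM in both groups. Stub1, the ubiquitin ligase CHIP, had 0.78, but 42.3% of its exon length overlaps Jmjd8 on the opposite strand. Of 21 J-domain proteins 5 were higher and 2 lower past 2-fold, with a median of 0.16. Dnajb2 had a log2 ratio of 2.31 (1.66 without cell 7 with micronuclei and 1.55 with equal weights), Dnajb6 had 1.35 (0.92 with equal weights) and Dnajc10, of the endoplasmic reticulum, 1.35 (0.74 with equal weights and 0.58 to 1.52 over the alternatives), so the last 2 were within 2-fold with equal weights. Each named gene kept its direction in all 10 alternatives, of which equal weights was also a condition for naming it.

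The TRiC chaperonin, which folds actin and tubulin, and the prefoldin genes had 0 of 13 past 2-fold in either direction and a median of 0.28, with Cct5 at 0.45, Tcp1 at 0.49 and Cct3 at 0.63. Cct3 was at 1.34 without cell 7 without micronuclei. Of the 10 mitochondrial chaperones and proteases 1 was higher and 3 lower past 2-fold, with a median of -0.45 that turned to 0.56 with mean log2 values. The protease genes Htra2 (2.68, with 1.84 at equal weights, 1.86 without cell 11 with micronuclei and 4.09 without cell 10 without) and Afg3l2 (0.72) lay above 0. Htra2 had at least 5 reads in only 9 of 21 and 2 of 14 cells. The protease gene Yme1l1 had -1.28 (-0.63 without cell 7 without micronuclei, -0.82 with equal weights and -1.44 to -0.07 over the alternatives). Exons of Htra2, Ruvbl2, Tcp1 and Dnajb6 also overlap genes on the opposite strand, which makes their counts uncertain. Of 7 other HSP70 and HSP110 genes 2 were higher past 2-fold, with Hspa4 at 1.10 (0.83 without cell 7 without micronuclei and 0.65 with equal weights), the mitochondrial HSP70 gene Hspa9 at -0.55 and Hspa4l at -0.82. Of the 10 chaperone genes of the endoplasmic reticulum 1 was higher and 1 lower past 2-fold. The lectin chaperone genes Canx (-1.34, and -0.90 without cell 7 without micronuclei) and Calr (-0.56) lay below 0, and Sdf2l1 (0.75) above.

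Of the 4 other small heat shock protein genes measured 1 was lower past 2-fold, Hspb6 at -1.41, which was -0.92 with equal weights, -0.06 without cell 5 without micronuclei and 0.18 without the 6 cells of few genes or many mitochondrial reads. The heat shock factor genes Hsf1 and Hsf2 had log2 ratios of -0.57 and -0.21, with summed levels of 47.6 CPM and 99.0 CPM with micronuclei. Both changed sign when 1 cell was left out, Hsf1 to 0.48 without cell 8 and Hsf2 to 0.15 without cell 5, both without micronuclei.

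**Figure D5:**
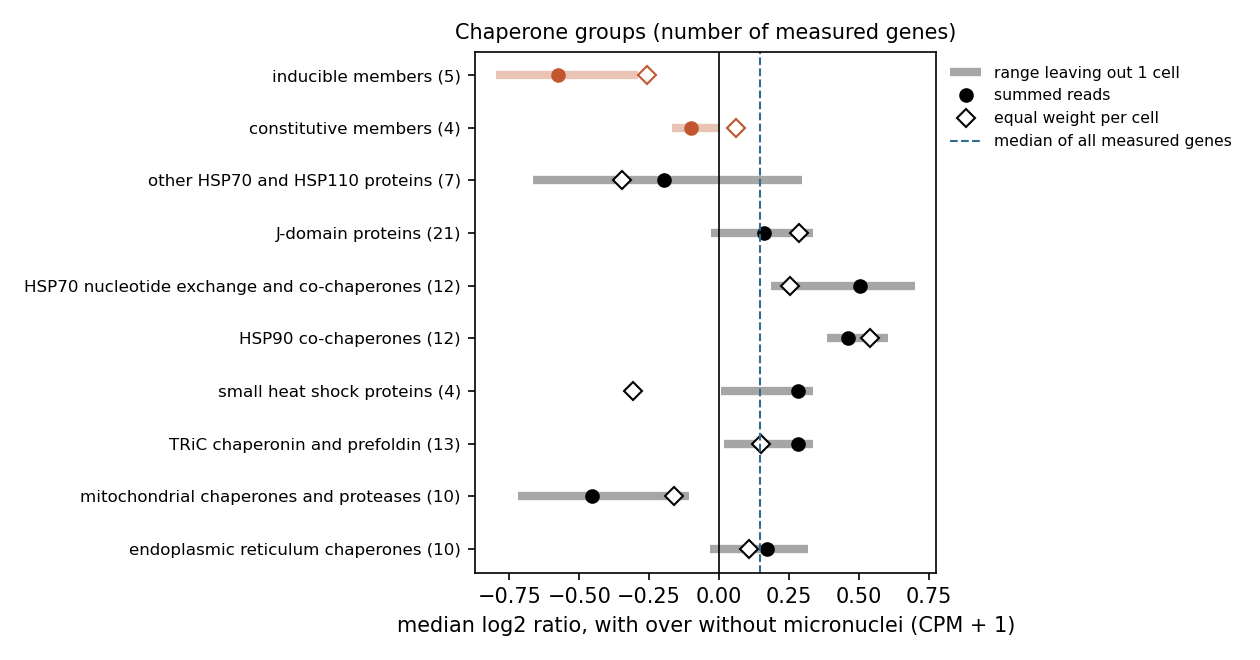
Median log2 ratio, with over without micronuclei (CPM plus 1), of the measured genes of each chaperone group, from summed reads (points) and with equal weight per cell (diamonds), with the range over leave-outs of 1 cell (bars) and the median of all measured genes, 0.15 (dashed line). In summed reads the 5 measured inducible members lie lowest and the co-chaperones of HSP70 and HSP90 highest; with equal weights the other HSP70 and HSP110 genes and the small heat shock protein genes lie below the inducible members, and the J-domain genes above the co-chaperones of HSP70.

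The genes most like the members over the 35 cells were ranked by Spearman's rho on log2(CPM + 1) among 3715 genes with at least 5 reads in at least 18 cells, leaving out the members and lists. The constitutive sum was followed most closely by Eif4g2 (rho 0.71), Tuba1b (0.64), Ddx21 (0.64), Hnrnpm (0.63) and Hells (0.58), against a median of -0.02 over those genes. The inducible sum was followed by Map3k20 (0.61), Ppp2r5d (0.58), Ptpn11 (0.58), Nsmce3 (0.58) and Myo9a (0.57), against a median of 0.04. These are the top of a ranking of many genes in the same libraries, and no test was made.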

How the data were processed

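The deposited table holds counts of whole reads per gene, not normalized, in 1 column per cell; 62 of its 19147 rows are spike-in RNAs, which stayed out of totals. Per the submitters' processing notes, STAR aligned the reads to GRCm38.p5, Rsubread counted them and scater served to filter cells. Not given in the sources used here are versions, strand and how multi-mapped reads were treated. No pair of cells was identical (0 pairs), and 0 columns of other samples were left unused.

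The reads of all cells in a group (11084425 and 11612303) were added up, scaled to CPM, and compared as a log2 ratio with 1 CPM added. The 95% intervals of log2 ratios come from an exact binomial split of the summed reads between the groups. Those for shares of cells are Clopper-Pearson intervals. Without molecular identifiers, reads are not independent molecules. Because each cell is a library of its own and no culture is named, no test between groups was made. For a fold against 0 reads, 3 reads in the whole group served as the floor.

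The members and lists were chosen with earlier results of these data known. All members were named; in each other list up to 3 measured genes were named by the size of their smallest ratio of 1 sign over summed reads, equal weights and every leave-out, and 5 genes per class by rho. The heat shock factor genes and the stated exceptions were named after their values were seen. Fibroblast, macrophage, endothelial, epithelial, skeletal muscle and neural markers served to describe the cells; summed endothelial markers reached 33.4 CPM, skeletal muscle markers 260.4 CPM, epithelial markers 409 CPM and neural markers 477 CPM in the highest cell.

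Each result was recomputed with scran or TMM scaling, with mean log2 CPM, with equal weights, with 0.1 or 5 CPM added, with totals lacking mitochondrial reads, after thinning, with other filters (none, or 20 CPM and 10 cells), with read minimums of 1 or 10, and without 6 cells or each single cell. Leaving out the 3 cells with macrophage markers was added after seeing the data. Gene models are GENCODE M21 (GRCm38), promoters RefSeq (GRCm38.p6). The script was tested on simulated data. Software was R 4.3.3 with edgeR 4.0.16 (TMM factors only) and scran 1.30.0, and Python 3.11.15 with scipy 1.17.1, pandas 2.3.3, numpy 2.4.6 and matplotlib 3.10.9.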

Additional observations from a re-analysis of the deposited data

How the results depend on the processing

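The direction of Hspa1b, Hspa8, Hsp90aa1, Hsp90ab1, Hsph1, Dnajb1, Hspd1 and Hspe1 was the same under all 10 alternatives and in all 35 leave-outs of 1 cell, and that of Hspb1 was not. The median log2 ratios of all members, of the inducible and of the constitutive members were -0.23, -0.30 and 0.059 with equal weights, -0.26, -0.32 and 0.0074 with mean log2 CPM, -0.57, -0.65 and -0.24 with TMM factors, and -0.27, -0.36 and 0.033 with scran factors. With 0.1 CPM added those of all and of inducible members were -0.51 and -0.81, in thinned cells -0.30 and -0.43, and without the 6 cells of few genes or many mitochondrial reads -0.53 and -0.62. The median was -0.51 for all members without the cells with macrophage markers and -0.80 for the 4 strictly inducible members (Hspa1a, Hspa1b, Hsph1 and Dnajb1). Leaving out 1 cell gave -0.54 to -0.37 for all, -0.67 to -0.39 for inducible and -0.17 to 0.0038 for constitutive members. The number of members lower past 2-fold was 1 with equal weights, mean log2 CPM, scran factors and thinned cells. Of all measured genes 10.5%, 5.28%, 12.3% and 12.5% were lower under these settings in turn, so 1 member is not read as an excess. The number was 2 with 5 CPM added and 4 with 0.1 CPM added, beside 12.1% and 15.4% of all measured genes. The fourth is Hspa1a, whose ratio against 0 reads is set by the added value and is no measured 2-fold difference. When 1 cell was left out, 1 to 3 members were lower past 2-fold. The difference in the inducible share kept its sign under every alternative tried (-7.46 to -4.24 points). For the share of the 4 strictly inducible members, which is a different and smaller share, the difference was -2.22 points. The cause of these shifts was not tested.

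Without a filter 3947 genes were higher and 2399 lower past 2-fold, and with the stricter filter 984 and 729, since fewer genes were then compared. The median of all measured genes was 0.01 with TMM or scran factors and 0.30 with mean log2 CPM. With mean log2 CPM 443 measured genes were lower past 2-fold, against 1236 from summed reads. Counting limits Hspa1a (5 reads) most. No paired analysis was possible because the labels give the cells of the groups no shared replicate numbers.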

Other observations

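Immediate early genes, which are transcribed within minutes of many stresses, were followed beside the chaperones. Of 18 listed 16 were measured, with 4 higher and 3 lower past 2-fold and a median log2 ratio of 0.35 (0.07 to 0.75 over the 10 alternatives). Among all 8390 measured genes 22.9% were higher and 14.7% lower past 2-fold, so these counts are not read as a result about the list. Dusp1, a phosphatase of MAP kinases, stood at 150.2 CPM with micronuclei and 22.4 CPM without (log2 ratio 2.69, with 1.65 at equal weights, 1.52 to 2.75 over the alternatives, and 2.13 without cell 9 with micronuclei to 3.40 without cell 13 without them). Ier2 stood at 157 CPM and 29.9 CPM (2.36, with 1.57 at equal weights and 1.47 to 2.39 over the alternatives). Fosb, a subunit of the AP-1 transcription factor, stood at 2.62 CPM and 13.3 CPM (-1.99, with -2.31 to -0.55 over the alternatives, and -0.85 without cell 9 without micronuclei, the cell that held all Hspa1a reads). At least 5 reads of Fosb were found in only 2 of 21 and 4 of 14 cells, with a median of 0 CPM in both groups. Each of these 3 genes kept its direction in all 10 alternatives. An equal sign with equal weights and in every leave-out of 1 cell was a condition for naming them, so it adds no support. All had only this description, with no replicate check.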
